A study of Mus musculus with 8 samples.

Results

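The regions described here are stretches of distal open chromatin that stood out in 1 mouse melanoma cell line, called line 73. ATAC-seq, an assay that tags accessible DNA with the Tn5 transposase, had been run on 8 libraries of 4 lines with 2 libraries each. Lines 112 and 113 carried a STAT3 knockout, and lines 119 and 73 were wild type for STAT3, the transcription factor downstream of cytokine receptors that the series is about. All lines were pools grown from lymph node cell suspensions of mice with cutaneous melanoma that set in at 25 to 30 weeks, and 50000 cells went into each reaction. The titles add a p number whose meaning is not stated, which was 18, 44, 14 and 68 for lines 112, 113, 119 and 73, in that order. The labels call the libraries biological replicates without naming separate cultures, so the spread between them may be technical. Line 73 is 1 line, so its genotype and every other property of the line cannot be told apart.

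The regions were chosen by their measured values. A region was taken if it was autosomal, lay more than 1 kb from the end of any protein-coding gene, had at least 4 CPM (counts scaled to a column total of 1000000) in both line 73 libraries, and if the lower of these was at least 3 times the highest CPM of the other 6 libraries. The rule found 2628 regions among 126838 distal autosomal regions (2.07%) and 148664 regions in all. The same rule turned to the other lines gave 384 regions for line 112, 330 for line 113 and 3515 for line 119. The CPM conditions alone were met by 163 of 17789 autosomal regions near gene ends (0.916%), by 55 of 4013 on chromosome X (1.37%) and by 0 of 24 on chromosome Y. That line 73 is high in these regions is therefore fixed by the choice, and no test of it is given.

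Enhancer activity was not measured here. Distal accessible regions include many enhancers, stretches of DNA bound by transcription factors that act on genes at a distance. They vary more between cell types than promoters do, and melanoma cells are known to move between a pigmented state under MITF and SOX10 and states that resemble neural crest or mesenchymal cells, in which AP-1 and TEAD factors occupy other enhancers. MITF is the main regulator of melanocyte genes, SOX10 is its upstream factor in the neural crest lineage, and AP-1 is the family of JUN and FOS dimers.

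Of the 2628 regions, 32 (1.22%) held at least 150 bases of a RefSeq promoter window, which runs from 250 bases before to 50 bases after an annotated transcript start. The share was 2.03% over all distal autosomal regions and 4.85% over the 31887 with peak calls in both line 73 libraries. A region can be far from gene ends and still hold a start, because the start can be internal to a gene or belong to a noncoding RNA. The 37 windows in the chosen regions were 21 of protein-coding genes and 16 of long noncoding RNAs. Sequences of 6 of them, picked by hand, are shown. Each lies wholly in a chosen region, as do others that are not shown. They are given 5′ to 3′ on the strand of the gene (GRCm38.p6, RefSeq), and capitals mark matches on either strand to the letters TGANTCA of AP-1, GGAATG of TEAD, TGTGGT of RUNX and the CArG box of serum response factor, SRF. The windows are chr13:72628570-72628869 for Irx2 (plus strand), chr7:137314396-137314695 for Ebf3 (minus), chr1:162217373-162217672 for Dnm3os (plus), chr14:34588632-34588931 for Ldb3 (minus), chr10:87860861-87861160 for Igf1 (plus) and chr1:150164899-150165198 for Ptgs2os2 (minus).
Irx2: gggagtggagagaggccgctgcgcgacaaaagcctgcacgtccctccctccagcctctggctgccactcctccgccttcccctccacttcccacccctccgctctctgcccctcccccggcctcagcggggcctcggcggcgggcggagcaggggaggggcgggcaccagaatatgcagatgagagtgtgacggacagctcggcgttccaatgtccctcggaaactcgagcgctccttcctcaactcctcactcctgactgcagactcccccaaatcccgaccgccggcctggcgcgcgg
Ebf3: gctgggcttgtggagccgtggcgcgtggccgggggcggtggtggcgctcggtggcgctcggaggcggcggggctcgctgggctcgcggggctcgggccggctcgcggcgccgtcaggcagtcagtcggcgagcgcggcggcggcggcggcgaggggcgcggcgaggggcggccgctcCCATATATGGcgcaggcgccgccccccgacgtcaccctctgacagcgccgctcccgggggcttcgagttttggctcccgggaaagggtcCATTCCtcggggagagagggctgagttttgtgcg
Dnm3os: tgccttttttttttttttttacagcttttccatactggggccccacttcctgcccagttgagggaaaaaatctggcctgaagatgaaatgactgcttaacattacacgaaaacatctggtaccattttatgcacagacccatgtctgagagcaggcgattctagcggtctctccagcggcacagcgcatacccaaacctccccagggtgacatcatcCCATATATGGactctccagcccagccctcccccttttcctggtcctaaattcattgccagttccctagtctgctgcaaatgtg
Ldb3: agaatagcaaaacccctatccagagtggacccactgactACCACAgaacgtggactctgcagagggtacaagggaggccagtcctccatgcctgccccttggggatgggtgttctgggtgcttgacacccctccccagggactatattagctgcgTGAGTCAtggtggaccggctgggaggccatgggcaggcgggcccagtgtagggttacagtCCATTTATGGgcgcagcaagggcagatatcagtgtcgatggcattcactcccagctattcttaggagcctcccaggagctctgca
Igf1: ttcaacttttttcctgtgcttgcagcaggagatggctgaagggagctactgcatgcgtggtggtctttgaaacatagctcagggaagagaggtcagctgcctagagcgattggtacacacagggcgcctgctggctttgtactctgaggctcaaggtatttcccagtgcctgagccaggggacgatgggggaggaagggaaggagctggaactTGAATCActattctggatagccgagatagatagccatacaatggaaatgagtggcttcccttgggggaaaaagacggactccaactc
Ptgs2os2: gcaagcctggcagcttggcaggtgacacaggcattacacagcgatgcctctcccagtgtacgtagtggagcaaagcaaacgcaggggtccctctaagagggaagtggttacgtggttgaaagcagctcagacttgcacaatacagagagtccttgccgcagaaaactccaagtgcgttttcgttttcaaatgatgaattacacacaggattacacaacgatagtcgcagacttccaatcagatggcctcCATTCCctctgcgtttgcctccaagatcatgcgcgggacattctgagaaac

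The Irx2 and Ebf3 windows were rich in G and C (69.0% and 77.0%), and the Dnm3os window was not (48.7%). Irx2 encodes an Iroquois homeobox factor, Ebf3 a factor of the early B-cell factor family, Dnm3os a noncoding RNA that hosts microRNAs and is known from mesenchyme, Ldb3 a LIM-domain protein of the muscle Z-disc, and Igf1 a secreted growth factor. A CArG box was found at bases 178 to 187 of the Ebf3 window, at bases 218 to 227 of the Dnm3os window and at bases 216 to 225 of the Ldb3 window. The Ldb3 window also had an AP-1 match at bases 156 to 162, and the Igf1 window had one at bases 214 to 220. The Irx2 window had no match to these letters, which says only that they are not in this window.

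The search was run over all 37 windows and all 32851 windows of the table, with 20 motifs on both strands. The CArG box was added to the search after the sequences had been read. Its share in these same windows is therefore a description and cannot test for an excess. It was found in 6 of 37 windows (16.2%), in 5 separate regions, against 535 of all windows (1.63%) and 39 of the 2954 windows in other distal regions (1.32%). The 5 regions lie at Ebf3, Dnm3os, Ldb3, Schip1 and the noncoding gene Gm52556. TGANTCA was found in 8 (21.6%, in 7 regions) against 7.81% of all windows and 12.3% of those in other distal regions. TGTTTAC of forkhead factors was found in 5 (13.5%, in 3 regions) against 3.65% and 3.62%, TGTGGT in 10 (27.0%) against 16.8% and 16.2%, and GGAATG in 8 (21.6%) against 14.7% and 16.7%. At the other end CACGTG, the E-box of MITF, was found in 1 window (2.70%) against 7.15% and 7.82%, and CCGGAA of ETS factors in 1 (2.70%) against 14.9% and 16.2%. These are descriptions of few windows, several of which overlap each other, and they cover 32 of the 2628 regions. A genome sequence was not used here, so the regions themselves were not searched.

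MicroRNA hairpins of RefSeq overlapped 4 chosen regions by at least 15 bases, those of Mir199a-2, Mir1983, Mir344b and Mir6416. Mir199a-2 lies downstream of the Dnm3os start in the same transcript, and the hairpin's first 45 bases fall in the region. The mature 5p strand, known from mesenchymal cells, is shown with its seed (bases 2 to 8) in capitals.
mmu-miR-199a-5p: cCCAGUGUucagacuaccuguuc

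The column totals ran from 2697546 counts in replicate 2 of line 112 to 7464336 in replicate 1 of line 119, with 4367914 and 3945177 in line 73, and a count of 0 allows up to 0.402 to 1.11 CPM depending on the library. Such limits cover counting error only. The labelled cell type was checked at gene ends, read as the strongest region within 1 kb of each gene. Several defining melanocyte and neural crest genes were low in line 73, and others were not. Sox10 had 2.29 and 3.30 CPM in line 73 against 16.6 to 26.3 elsewhere, Foxd3 5.72 and 8.62 against 43.1 to 69.5, and Pax3 5.27 and 6.08 against 29.8 to 49.4. Dct, a pigment enzyme, had 0.458 and 0.507 CPM, and Mlana had 0.458 and 0, but line 119 was also low there (0.670 and 0.872 in Mlana). Mitf itself had 34.1 and 36.5 CPM, above the 17.8 to 32.8 of the other libraries, and Sox9 had 80.6 and 80.4 against 35.7 to 65.1. The list of melanocyte and neural crest factors, 14 of 16 with such a region, summed to 305 and 330 CPM in line 73 and 385 to 494 elsewhere. Of the 14, 11 reached 4 CPM in both line 73 libraries and 13 in all of the other 6, and 4 were called higher and 5 lower in line 73 by edgeR's test, which called 51.4% of all tested gene ends higher and 10.1% lower. The summed level over the 12 of 20 pigment genes with such a region was 57.0 and 65.9 CPM in line 73, 116 and 119 for line 119, and 248 to 298 in the knockout lines. Pigment genes and Sox10 thus do not bear out a melanocytic identity of line 73, and the line is called by its number only.

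The fibroblast and smooth muscle list went the other way. Its 12 of 16 genes with a region summed to 207 and 220 CPM in line 73 and 68.1 to 84.5 elsewhere, and 9 of the 12 reached 4 CPM in both line 73 libraries against 3 in all of the other 6. Acta2, smooth muscle actin, had 38.9 and 40.6 CPM in line 73 against 3.75 to 5.19. Pdgfrb had 41.9 and 45.1 against 2.78 to 14.3, while Pdgfra had 0.687 and 1.52 and Lum 0.458 and 0.760. Endothelial genes summed to 44.4 and 47.4 CPM against 30.8 to 65.2, leukocyte genes to 78.5 and 70.7 against 59.1 to 77.8, keratinocyte genes to 62.0 and 59.3 against 40.8 to 66.0, and Schwann cell and glia genes to 151 and 149 against 213 to 273. The part that other cells in the culture might have in the chosen regions was not tested. In these bulk libraries fewer cells of a type and less accessible DNA per cell cannot be told apart.

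**Figure D1:**
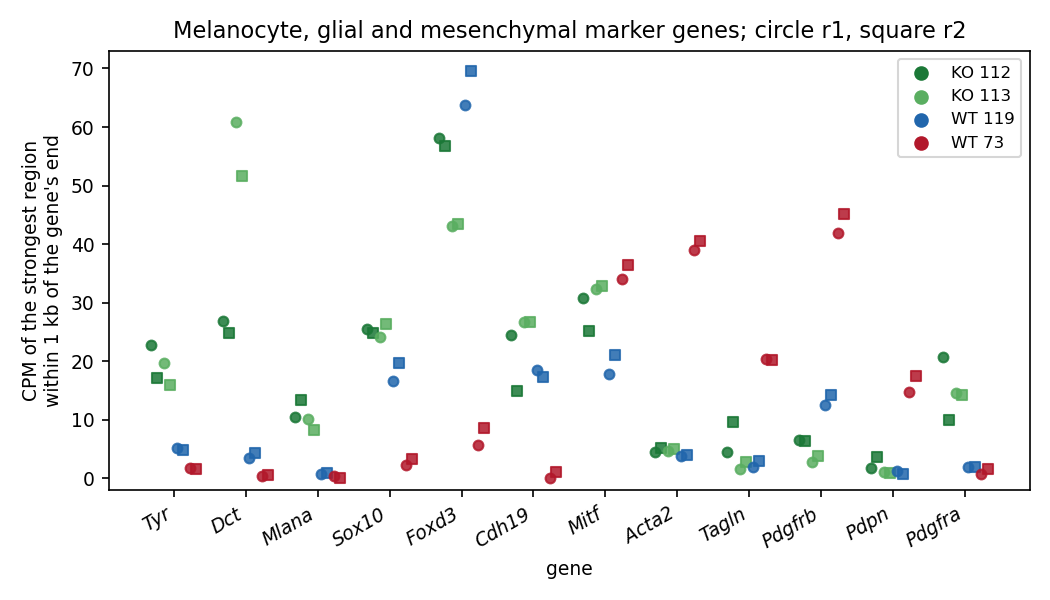
CPM (linear axis) of the strongest region within 1 kb of the end of 12 marker genes, in each of 8 libraries coloured by line, with circles for replicate 1 and squares for replicate 2. Line 73 is lowest at Sox10, Foxd3 and Cdh19 and highest at Acta2, Tagln, Pdgfrb and Pdpn. At Mitf its lower library lies just above the highest of the others (34.1 against 32.8).

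In the chosen regions the median level was 12.4 and 12.2 CPM in the line 73 libraries. It was 1.50 and 2.22 for line 112, 0.994 and 1.12 for 113, and 1.34 and 1.22 for 119. Over all distal autosomal regions the line 73 medians were 2.06 and 2.28 CPM, below those of lines 112 and 119. They held 3.88% and 3.80% of all counts in the line 73 libraries and 0.328% to 0.671% in the others. The lower line 73 CPM ran from 4.06 to 79.0 with a median of 11.2. Its ratio to the highest other library ran from 3 to 23.9 with a median of 4.05, was under 4 in 1275 regions (48.5%) and reached 10 in 75 (2.85%). On line means the fold over the average of the other lines had a median of 8.01.

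**Figure D2:**
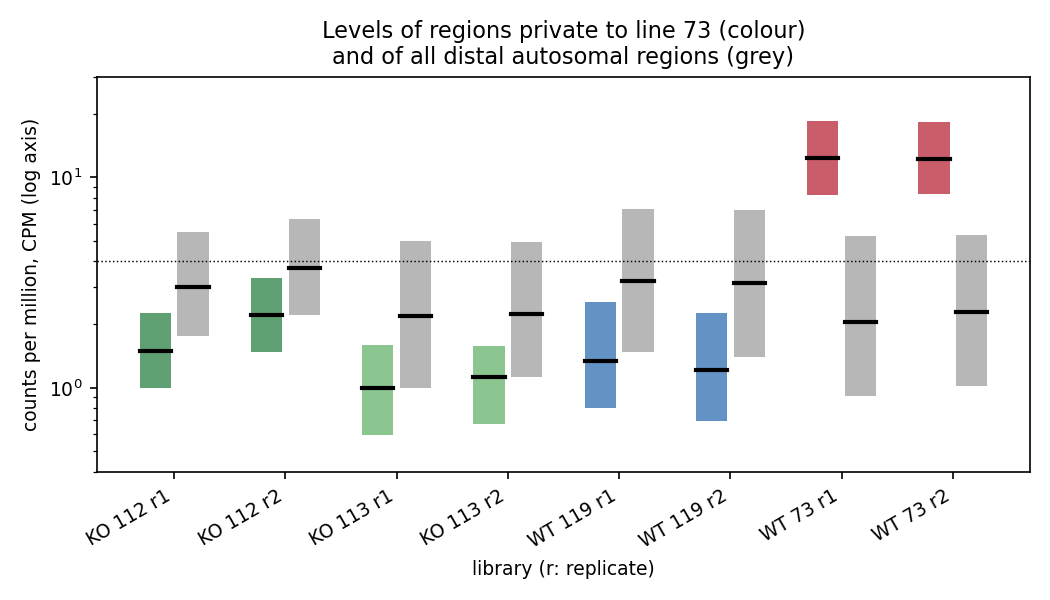
CPM (log axis) in each library of the 2628 chosen regions (coloured) and of all 126838 distal autosomal regions (grey). Boxes span the quartiles and black bars are medians, and the dotted line is the floor of 4 CPM. The chosen regions have medians of 12.4 and 12.2 in line 73 and of 0.994 to 2.22 in the other libraries, each below the grey median of its library.

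The replicates of line 73 were within 1.5-fold of each other in 2471 regions (94.0%). Since the rule used both, each replicate was also read where only the other had chosen. Choosing on replicate 1 alone gave 3573 regions, of which replicate 2 exceeded all 6 other libraries in 3570 (99.9%) and by 3 times in 2680 (75%). Choosing on replicate 2 alone gave 3510, of which replicate 1 exceeded the others in 3492 (99.5%) and by 3 times in 2691 (76.7%). The other 6 libraries were the same in both readings, so only the line 73 value was new. All 2628 chosen regions were in both sets, and for them the rule itself fixes that both replicates exceed the others by 3 times. The shares thus describe how far the 2 choices overlap and are not a test of the regions. The median ratio fell from 4.09 to 3.85 and from 4.07 to 3.94 in the library that had not chosen. The highest other library was replicate 2 of line 112, the shallowest, in 1225 regions, and without it the rule gave 3925 regions.

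At the threshold of 4 CPM, the last regions taken lay near Exph5, Mmut and Gm32584 with a lower line 73 level of 4.06 CPM, and the first left out lay near Nav3, D130037M23Rik and Eif3h at 3.89. At the ratio the last taken, near Dyrk2, Snx9 and Abcc3, and the first left out, near Ipo11, Mfhas1 and Rgs4, all had ratios that round to 3. At the distance limit a region at 1.02 kb from Nfatc4 was taken, and one at 0.973 kb inside Acta2 (12.8 and 15.2 CPM in line 73, at most 3.34 elsewhere) was left out.

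The authors' peak calls were a second readout of the same reads. Both line 73 libraries had a peak in 2536 of the 2628 regions (96.5%), and 1903 (72.4%) had peaks in both and in 0 of the other 6 libraries. Over all distal regions the shares were 25.1% and 5.27%. The regions were chosen on the levels of these reads, so this contrast largely follows from the choice and is a description only. A peak in either library of line 119 was present in 620 (23.6%), of line 113 in 68 (2.59%) and of line 112 in 24 (0.913%). Per library, peaks of these lines lay in 15.3% to 21.8%, 1.71% to 1.79% and 0.114% to 0.913% of the chosen regions. Over all distal regions the shares per library were 51.9% to 58.4%, 28.7% to 28.8% and 7.56% to 19.7%, and line 119 was the deepest. The chosen regions made up 7.95% of the 31887 distal regions with peaks in both line 73 libraries. Ranked by the authors' fold over background within each list, their peaks had a median percentile of 70.5 and 69.7. With peaks required to cover 50% of the region, 1596 (60.7%) kept the pattern of both line 73 libraries and none of the others.

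The 10 strongest regions had 57.5 to 79.0 CPM in the lower line 73 library. The first holds the Irx2 start shown above (chr13:72628373-72629178, 3.94 kb inside the gene). It had 79.0 and 85.9 CPM in line 73, 4.76 and 11.5 for line 112, 5.57 and 2.25 for 113, and 1.21 and 0.872 for 119. Line 73 was far above the others, and line 112 replicate 2 was the nearest. The region near Pawr, which encodes a pro-apoptotic regulator, is the opposite kind (chr10:108445528-108446742). It had 72.8 and 64.6 CPM in line 73 and 11.5 to 19.8 in all other libraries, so it was open in every line and passed with a ratio of 3.26. The region 78.0 kb from Cdh5 (chr8:104022922-104023572), the gene of vascular endothelial cadherin, had 59.8 and 71.2 CPM in line 73 and 2.47 to 6.30 elsewhere. The others were near Ank, a pyrophosphate transporter (66.4 and 62.4 CPM), Wnt10b, a Wnt ligand (69.1 and 59.8), Fancc within Aopep (62.5 and 59.6), Bnc2, a zinc finger factor (60.9 and 59.3), Fstl4 (61.6 and 59.1), Msrb3, a methionine sulfoxide reductase (64.1 and 58.8), and Ankrd1, a target gene of YAP and TEAD (60.0 and 57.5). In the Ankrd1 region (chr19:36129033-36130101) the other libraries had 1.61 to 8.16 CPM.

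The highest ratios among regions of at least 10 CPM were found where the other lines were near the limit of a count of 0. The region inside Ptprq (chr10:107601303-107601874), a receptor phosphatase gene, had 19.9 and 17.7 CPM in line 73 and 0.250 to 0.741 elsewhere, a ratio of 23.9. The one 35.5 kb from Prrx1 (chr1:163209129-163209633), a homeobox factor of limb and craniofacial mesenchyme, had 16.7 and 16.2 against 0.371 to 0.795. Those near Dapk1, Hpf1 and Pla2g4a had ratios of 22, 21.4 and 21.2. Pla2g4a encodes the cytosolic phospholipase that releases arachidonic acid, and its region (chr1:149846605-149847112) had 31.8 and 32.4 CPM in line 73 and 0 to 1.50 elsewhere.

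**Figure D3:**
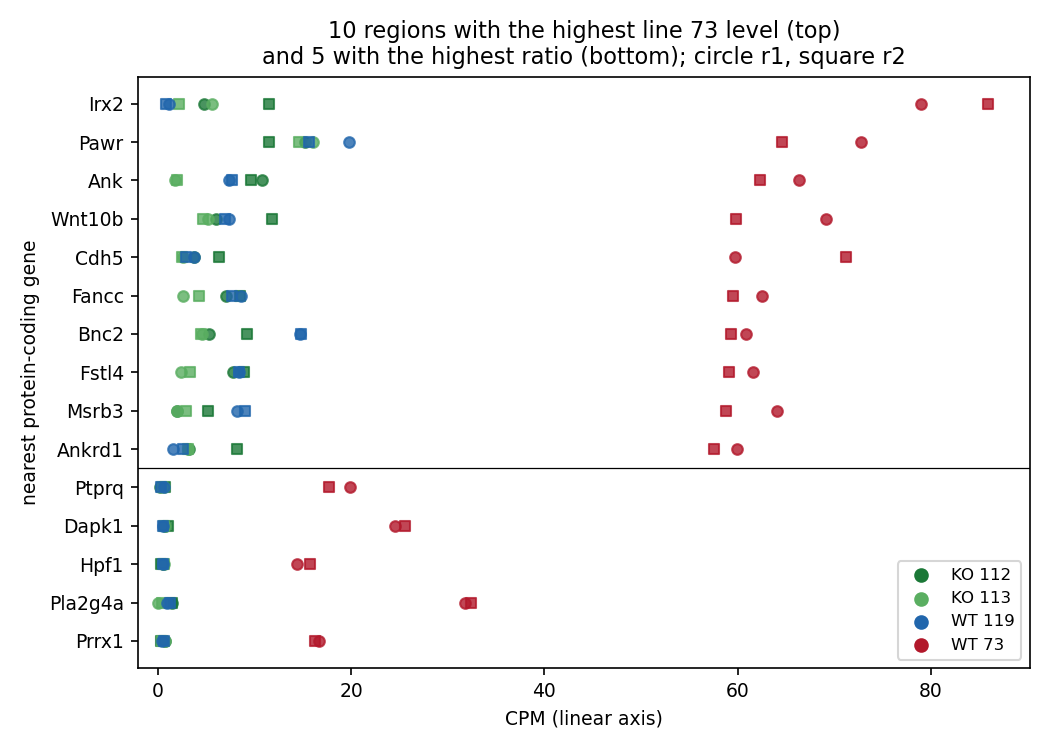
CPM (linear axis) of the 10 chosen regions with the highest line 73 level and the 5 with the highest ratio, named by the nearest protein-coding gene, in 8 libraries coloured by line (circles replicate 1, squares replicate 2). Line 73 lies apart in every row, as the rule requires, and the other lines reach 19.8 CPM near Pawr but at most 1.50 in the 5 lower rows.

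The median distance of the chosen regions to a gene end was 37710.5 bp, against 30914.5 over all distal regions and 24497 over those with peaks in both line 73 libraries. They lay inside a protein-coding gene in 1236 cases (47.0%), against 52.0% and 51.6%. They had 1760 nearest genes, of which 512 were nearest to at least 2, 189 to at least 3 and 41 to at least 5. With neighbours joined where they lay within 100 kb, they formed 1857 stretches, in which 1386 regions stood alone and 636 fell into 168 stretches of at least 3.

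The stretch with most regions surrounds Ptgs2, which encodes cyclooxygenase-2, the inducible enzyme of prostaglandin synthesis, and reaches Pdc. It spans chr1:150042883-150260792 (218 kb) and holds 11 chosen regions of 25 distal ones. Their lower line 73 level ran from 4.58 to 35.0 CPM, and the other libraries reached at most 9.38. The strongest, 56.5 kb from the gene, had 39.8 and 35.0 CPM in line 73, 9.38 and 6.80 for line 119, 1.50 and 1.85 for 112, and 0.398 and 1.12 for 113. The region with the Ptgs2os2 start had 26.6 and 22.6 in line 73, 2.25 and 2.22 for line 112, 0 and 1.12 for 113, and 0.536 and 0.697 for 119. The end of Ptgs2 itself, which the rule did not hold, had 47.2 and 47.9 CPM in line 73 and 1.35 to 4.82 elsewhere. Pla2g4a, whose product supplies the substrate of this enzyme, lies on the same chromosome.

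The Hoxc cluster was second, with 9 chosen of 14 distal regions in chr15:102926147-103060650. Hox genes set position along the body axis, and the regions lay at Hoxc13, Hoxc11, Hoxc10, Hoxc6 and Hoxc4. The strongest, inside Hoxc4 (chr15:103027277-103028051), had 24.0 and 22.8 CPM in line 73, 2.00 and 7.41 for line 112, 1.39 and 1.12 for 113, and 1.88 and 1.74 for 119. At the gene ends Hoxc6 had 37.6 and 32.7 CPM in line 73 against 2.47 to 7.77, and Hoxc10 had 44.4 and 34.0 against 3.58 to 10.01.

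The third stretch holds 8 of 9 distal regions in chr5:111799951-111892329 and is far from genes, 343 to 391 kb from Mn1 and Cryba4, the former a transcriptional coregulator. Its regions had 11.7 to 38.2 CPM in the lower line 73 library. Line 119 had 0.174 to 1.39 CPM there, while line 112 reached 7.41. Near Msrb3 and Hmga2, the gene of a chromatin protein of embryonic and mesenchymal cells, 8 of 31 distal regions were chosen (chr10:120609851-120808164). The end of Msrb3 had 58.8 and 55.8 CPM in line 73 and 11.8 to 32.1 elsewhere. Near Rbpj, the DNA-binding factor of Notch signalling, 7 of 20 were chosen (chr5:53493676-53632542), with 5.58 to 18.3 CPM.

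Counted by nearest gene, Ptgs2 had 10 chosen regions of 23 and Fam135b 8 of 23. Eif3h, Msrb3, Ptchd4, Rbpj, Sgcd and Tcf4 had 7 each, and Asap1 and Cryba4 were among the genes with 6. Their gene ends differed. Ptchd4 had 49.5 and 50.9 CPM at its end in line 73 and 0.402 to 5.39 elsewhere, whereas Eif3h had 22.7 and 21.0 against 15.9 to 28.3 and Tcf4, an E-protein, 23.8 and 22.6 against 15.8 to 28.5. Over 12872 genes with a tested end region, edgeR's quasi-likelihood test called line 73 higher than the mean of the other lines at 51.4% of gene ends and lower at 10.1% (adjusted p under 0.05). Among the 32 genes nearest to at least 5 chosen regions it was 22 (68.8%) and 0, and among genes nearest to none 49.9% and 10.3%. The contrast is the one that chose the regions, so nothing is read from these counts. Library totals in place of TMM moved the median of all regions in this contrast from 0.01 to -0.14 (log2) and the share of gene ends called higher to 41.6%.

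The 18 gene lists that describe cell types and pathways were nearest to 176 chosen regions (6.70%) and to 4.51% of all distal regions. The share of distal regions chosen was 2.07% in all. It was lowest at the pigment list, with 1 of 166 (0.602%), the melanocyte and neural crest factors, with 9 of 649 (1.39%), and the Schwann cell and glia list, with 3 of 204 (1.47%). Other denominators moved these shares. Within 50 kb of the gene they were 1 of 117 (0.855%), 5 of 210 (2.38%) and 3 of 102 (2.94%). Over all distal regions, 262 of 15480 were chosen up to 5 kb from a gene end, and 1263 of 63224 from 5 to 50 kb. The 2.07% of all distal regions covers all distances, so it is not a matched reference for the shares within 50 kb. The pigment share within 50 kb lay below the 2.07%. Those of the melanocyte and neural crest factors and of the Schwann cell and glia list lay above it, so their low shares depended on the denominator. Among regions with peaks in both line 73 libraries they were 3.57%, 8.18% and 6.98%, against 7.95% over all such regions. The single pigment region lies inside Trpm1 (chr7:64249668-64250203), a melanocyte channel gene that hosts microRNAs, and had 15.1 and 14.2 CPM in line 73 against 0.994 to 2.25. Among the lineage factors the strongest was 62.7 kb from Sox9 (chr11:112850431-112850932), which encodes a factor of cartilage and neural crest. It had 41.0 and 44.4 CPM in line 73, 2.75 and 3.34 for line 112, 0.596 and 1.80 for 113, and 1.74 and 0.872 for 119. The distal regions near the pigment list as a whole had a median log2 ratio of line 73 to the other lines of -1.35, and those near the lineage factors -1.10, against -0.43 over all distal regions.

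The list of dedifferentiated and invasive melanoma genes had the highest share, 17 of 346 (4.91%). Its strongest regions were near Ccn1, a matricellular target of YAP (34.3 and 29.7 CPM in line 73, at most 8.31 elsewhere), Fosl2, an AP-1 subunit (38.5 and 29.1, at most 8.53), Tgfbi (18.3 and 20.8, at most 5.56) and Nrg1, the ligand of ERBB3 (20.8 and 15.7, at most 1.85). The AP-1 list had 3 of 88 (3.41%), and 2 of these were at Jun. Within 50 kb of the gene it had 3 of 68 (4.41%). Among regions with peaks in both line 73 libraries its share was 8.11%, against 7.95% over all such regions. The region 46.0 kb from Jun (chr4:95098213-95098749) had 30.9 and 26.9 CPM in line 73 and 0.994 to 2.27 elsewhere. The end of Jun was open in all lines, with 83.3 and 85.7 CPM in line 73 and 63.0 to 109 elsewhere. The CEBP list had 2 of 41 (4.88%), which lay 70.8 kb from Cebpb and 58.6 kb from Cebpd, and 0 of 14 within 50 kb. The list of TEAD, YAP and RUNX genes had 8 of 265 (3.02%), with Amotl2 and Runx1 leading. It had 4 of 177 (2.26%) within 50 kb, and 9.21% among regions with peaks in both line 73 libraries.

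The list of epithelial-mesenchymal transition genes had 17 of 461 (3.69%), led by Tcf4 (25.6 and 27.6 CPM in line 73, at most 6.30 elsewhere), Snai1 (21.5 and 19.8, at most 6.45) and the Prrx1 region. Of the 17, 7 were nearest to Tcf4, which was nearest to 87 distal regions. Within 50 kb of the gene the list had 8 of 168 (4.76%). The list of matrix, integrin and lamin genes had 20 of 544 (3.68%), with 3 of its 4 strongest near Itga5, the fibronectin receptor subunit. Of these the region 11.4 kb away (chr15:103378191-103378751) had 41.0 and 40.3 CPM in line 73 and 1.39 to 7.78 elsewhere. The region 15.3 kb from Col1a2, a chain of type I collagen, had 35.5 and 33.2 CPM in line 73, 5.26 and 7.04 for line 112, 1.39 and 1.57 for 113, and 8.84 and 8.54 for 119. The end of Col1a2 had 29.8 and 28.4 CPM in line 73 and 0.536 to 6.30 elsewhere. The fibroblast and smooth muscle list had 5 of 154 (3.25%). Pdpn, the gene of podoplanin, had a region with 37.8 and 41.3 CPM in line 73 and 0.501 to 4.45 elsewhere, and Acta2 one with 17.9 and 19.5 against 0.872 to 1.85.

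Homeobox genes of limb and body axis had 14 of 342 (4.09%), with a region near Msx1 at the top (18.5 and 20.8 CPM in line 73, at most 2.01 elsewhere). The Wnt list had 15 of 380 (3.95%), with Wnt7b and Tcf7l2, and the TGF-beta and BMP list 16 of 493 (3.25%). Of these 16, 6 lay inside 1 gene, Tgfbr3, the co-receptor betaglycan, which was nearest to 43 distal regions. Within 50 kb of the gene the TGF-beta and BMP list had 7 of 262 (2.67%). The strongest Tgfbr3 region (chr5:107200039-107201332) had 49.0 and 42.8 CPM in line 73 and 2.00 to 6.67 elsewhere. Neuron and axon guidance genes had 28 of 1137 (2.46%), among them Nrp2 and Slit2. The STAT3 pathway list had 7 of 277 (2.53%), of which the 4 strongest were near Myc and Jak1. Within 50 kb of the gene this list had 2 of 157 (1.27%). Among regions with peaks in both line 73 libraries its share was 6.48%, against 7.95% over all such regions.

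Lists of cell types that are not melanocytic had 7 of 153 (4.58%, endothelial), 5 of 117 (4.27%, keratinocyte and epithelial) and 6 of 193 (3.11%, leukocyte). The endothelial ones were near Cdh5, Flt1 and Pecam1 among others, while the summed level of that list's gene ends lay within the range of the other lines. The epithelial ones were near Krt8, Krt18 and Klf5. Lists hold few regions each and share genes, and a nearest gene need not be the target.

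**Figure D4:**
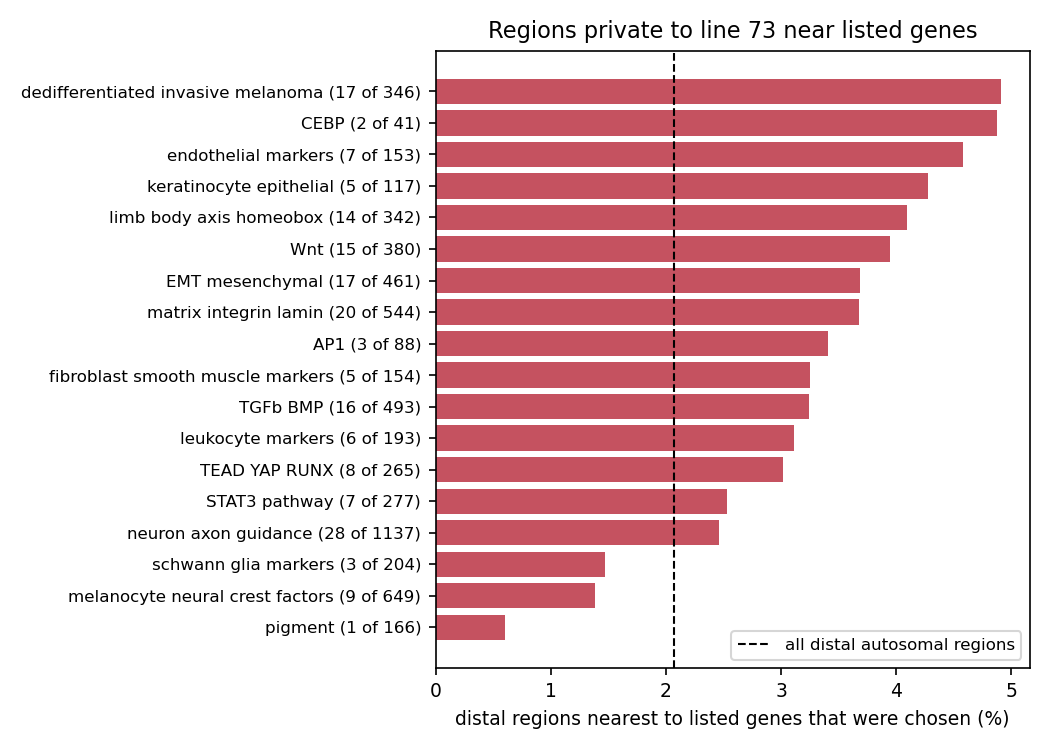
Share (%) of the distal autosomal regions nearest to genes of 18 lists that were chosen as private to line 73, with the number chosen of the number nearest. The dashed line is the share over all distal autosomal regions (2.07%), the pigment list lies at 0.602% and the list of dedifferentiated and invasive melanoma genes at 4.91%.

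The share of distal regions chosen differed between chromosomes. It was highest on chromosomes 15 (3.56%), 10 (3.55%) and 13 (3.13%) and lowest on chromosomes 6 (0.828%), 4 (0.996%) and 2 (1.12%). The level of line 73 in distal regions that had no peak in any library moved with it. Relative to all autosomes, the median log2 ratio of line 73 to the other lines in such regions was 0.24 on chromosome 10 and 0.23 on chromosome 15, and -0.24 on chromosome 6 and -0.20 on chromosome 4. Over the 19 autosomes, which share libraries and column totals, the Pearson correlation of the share with this level was 0.96 and the Spearman correlation 0.97. When line 73 CPM were divided by the level of their chromosome, an alternative chosen after seeing the data, the rule gave 2534 regions, of which 2337 were among the 2628. The shares of chromosomes 15, 10 and 6 were then 2.53%, 2.40% and 1.51%. Copy number was not measured here. The Hoxc and Msrb3 stretches lie on chromosomes 15 and 10, and the Ptgs2 stretch lies on chromosome 1, whose level was 0.03.

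**Figure D5:**
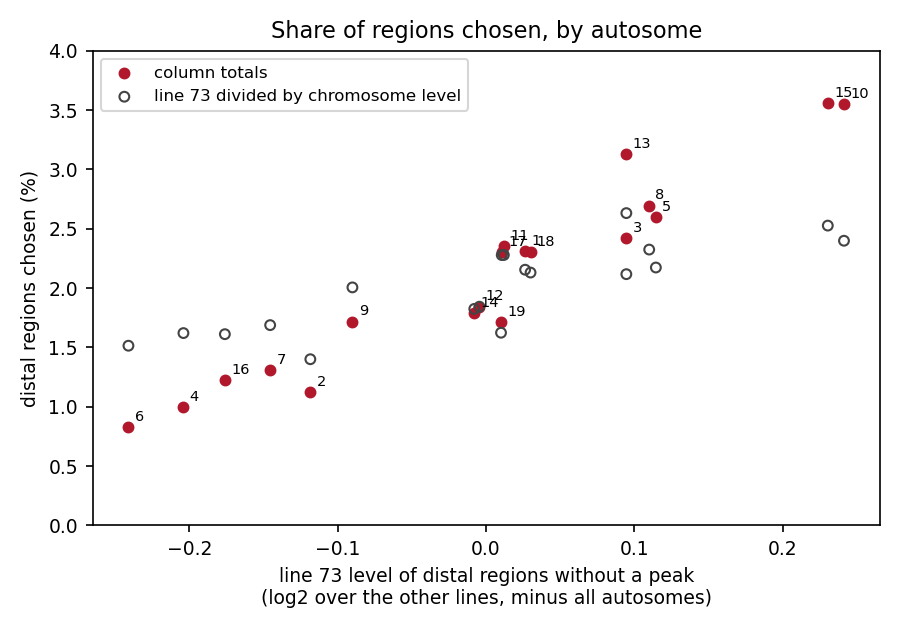
For each autosome (numbered), the share (%) of distal regions chosen against the median log2 level of line 73 over the other lines in distal regions without a peak, minus that of all autosomes. Filled points use column totals, and open points use line 73 CPM divided by the chromosome's level. Filled points rise from 0.828% on chromosome 6 to 3.56% on chromosome 15, and open points span 1.40% to 2.63%.

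The rule says nothing of how the other lines differ from each other in these regions, apart from keeping them low, and this was tested. All 2628 regions entered the fit of 134068 regions by edgeR's quasi-likelihood test with 2 libraries a line. The filter for low counts was run over all 8 libraries. In fits of only the 4 libraries of a pair, 670 chosen regions passed it for lines 112 and 113. For lines 112 and 119 it was 1107, and for lines 113 and 119 it was 894. The other chosen regions did not pass on the counts of the pair alone. Low call shares over all 2628 regions therefore follow in part from how the regions entered the fit. Line 112 was higher than line 113 in 152 regions (5.78%) and lower in 16 (0.609%), against 8.95% and 16.5% of all tested regions. Line 112 was higher than line 119 in 320 (12.2%) and lower in 180 (6.85%), against 23.4% and 25.3%. Line 113 was higher than line 119 in 134 (5.10%) and lower in 476 (18.1%), against 31.0% and 30.1%. In every comparison and direction of this fit the share was below that of all regions, where levels were not capped. This did not hold throughout in fits of only the 4 libraries of a pair. There line 112 was higher than line 113 in 123 of 670 chosen regions, against 12281 of 99773 tested. Line 113 was lower than line 119 in 406 of 894, against 44070 of 118851. In the remaining directions the share stayed below. In the fit of all 8 libraries the median log2 fold change over the chosen regions was 0.51 for line 112 over line 113. It was 0.19 for line 112 over line 119 and -0.23 for line 113 over line 119. Over all regions these medians were 0.08, 0.04 and 0.09. The comparisons share lines. Line 113 had the lowest median line mean, 0.972 CPM against 1.80 for line 112 and 1.35 for line 119. The same order held at low levels over all distal regions. There the lower quartile of the line mean was 1.16 CPM for line 113, 2.04 for line 112 and 1.48 for line 119. Peak calls in the chosen regions went the other way between the knockout lines, with 24 regions for line 112 and 68 for line 113.

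These counts rest on low levels. Leaving out replicate 1 of line 113 gave 61 calls in place of 168 between lines 112 and 113, and leaving out replicate 2 of line 112 or of line 113 gave 101 and 105. Without replicate 1 of line 119 there were 232 in place of 500 between lines 112 and 119 and 391 in place of 610 between lines 113 and 119. Without replicate 1 of line 112 there were 321 in the former, and without replicate 1 of line 113 there were 380 in the latter. The direction between lines 112 and 119 was not stable. Without replicate 2 of line 112, line 112 was higher in 168 and lower in 221 with a median of 0.03, and without replicate 2 of line 119 the counts were 171 and 166 with a median of -0.05. In the 110 regions with a mean of at least 50 counts they were 10 and 35 with a median of -0.36, and in a fit of only the 4 libraries of the pair, with 1107 regions, 196 and 137 with a median of -0.06. Library totals in place of TMM turned the split of all regions between lines 112 and 113 from 11994 higher and 22152 lower to 22363 and 12302, moved their median from 0.08 to 0.41, and gave 348 chosen regions higher and 6 lower.

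A pair of regions near Ank showed how neighbours can differ. The one 60.5 kb away (chr15:27405583-27406217) had 10.8 and 9.64 CPM for line 112, 1.79 and 2.02 for 113, 7.37 and 7.67 for 119, and 66.4 and 62.4 for 73. It was higher in line 112 than in line 113 by 2.10 on the log2 scale (SE 0.36, adjusted p = 1.89e-05, edgeR). The one 47.6 kb away (chr15:27418505-27419091) had 2.00 and 2.97 CPM for line 112, 1.39 and 1.57 for 113, 11.3 and 11.5 for 119, and 44 and 42.3 for 73. There line 113 was lower than line 119, with a log2 fold change of -2.71 (SE 0.36, adjusted p = 1e-08, edgeR). In the first region lines 112 and 119 were both raised, and in the second only line 119 was.

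Regions in which line 119 held an intermediate level included one 42.2 kb from Cd44, the hyaluronan receptor (chr2:102943892-102944527). It had 14.9 and 13.4 CPM for line 119, 1.50 and 3.34 for 112, 3.18 and 1.80 for 113, and 46.0 and 45.1 for 73. Line 112 was lower than line 119 by edgeR's test (log2 fold change -2.74, SE 0.36, adjusted p = 1.15e-08). The region inside Senp1 (chr15:98049020-98049759) had the same order, with 11.8 and 8.89 CPM in line 119 and 0.501 to 2.70 in the knockout lines. Line 119 was the low one at Irx2, where line 112 was higher by 2.70 (log2, SE 0.44, adjusted p = 1.61e-06, edgeR), and near Mn1 (chr5:111799951-111800460), where it was higher by 3.11 (SE 0.53, adjusted p = 3.75e-06). The Mn1 region had 3.51 and 7.41 CPM in line 112 against 0.402 and 0.697 in line 119.

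Between the knockout lines the region inside Sgce (chr6:4708864-4709477), the gene of epsilon-sarcoglycan, was higher in line 112, with 6.51 and 5.93 CPM against 0.795 and 0.899 in line 113. The region inside Nuak1 (chr10:84392349-84393014), a kinase gene, was lower in line 112, with 3.0 and 5.93 CPM against 10.5 and 9.89, and so was one inside Lrmda, with 3.26 and 4.08 against 9.74 and 7.19. Adjusted p of edgeR's test was 0.000116, 0.00026 and 0.000871 in these. Line 113 was higher than line 119 near Apob (3.98 and 5.39 CPM against 1.07 and 0.349) and inside Tpm4, a tropomyosin gene (3.98 and 11.7 against 1.74 and 2.27), with adjusted p of 1.55e-06 and 4.79e-06 (edgeR). The 2 line 113 libraries were not close to each other at Tpm4.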

How the data were processed

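The ATAC-seq libraries were 8, 2 for each of 4 lines. The authors deposited raw counts for 148664 regions and a peak list per library with a score, a fold over background (ratio), and −log10 of p and q for each peak. Per the submitters' processing notes, the tools were Bowtie2 2.2.4, Picard 1.118 and MACS2 2.1.1.20160309 and the builds mm10 and GRCm38. What was counted, and whether duplicates were removed or positions shifted, is not given in the sources used here, so counts may include PCR duplicates. The table had 0 columns of other samples.

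CPM are counts over the column total. Distances are to the nearest end of 21887 protein-coding genes (RefSeq, GRCm38.p6). Line pairs were tested with edgeR 4.0.16 (R 4.3.3; filterByExpr, TMM, glmQLFit robust, glmQLFTest, two-sided, Benjamini-Hochberg), one mean per line over all 8 libraries. A region is called at an adjusted p under 0.05. Peaks overlapped by at least 1 bp. DESeq2 1.42.0 was an alternative.

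The members and gene lists were chosen with earlier results of these data known. Regions are named by rank: 10 by level, 5 by ratio, 3 on each side of each threshold, 5 stretches, 10 genes, up to 4 a list and 2 a direction of each pair. Values at gene ends were chosen after they were seen. 1 item is not reported here.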

Additional observations from a re-analysis of the deposited data

How the results depend on the processing

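The number of regions was 5761 when 2 times the highest other library sufficed and 750 when 5 times was required, and it ran from 2659 to 3925 when a library was left out. It was 3758 with CPM from TMM library sizes, and other floors, distances and peak conditions kept it within 1.5 times. The share with peaks in both line 73 libraries only was 60.7% at 50% overlap and 72.3% with −log10 q of at least 5. Within 50 kb the lists held 96 regions in place of 176. Regional levels of line 73 around the regions had a median of -0.33 in 5 Mb windows and -0.25 in 1 Mb windows, against -0.45 and -0.42 over all distal regions.

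Calls between lines 112 and 113, 112 and 119, and 113 and 119 numbered 168, 500 and 610. An adjusted p under 0.01 gave 49, 213 and 347, DESeq2's Wald test 55, 205 and 351, and a mean of 50 counts or more per region, which left 110 of the regions, 51, 45 and 86. Fits of only the 4 libraries of a pair gave 333 for lines 112 and 119, and library totals gave 354 for lines 112 and 113. Leaving out 1 library gave 61 to 155, 232 to 507 and 380 to 679. With the replicate number as a replicate block the calls were 161, 490 and 601. The labels share only numbers, and same-numbered libraries did not deviate together (correlations of -0.04 to 0.00 over 6 line pairs).

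A motif search over the regions, in windows of other widths or matched for GC content, was not run. In replicate 2 of line 112 a count of 0 allows 1.11 CPM, which limits how low the other lines can be shown to be.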
